A study of Mus musculus with 2 samples.

Results

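Microexons are internal exons of 3 to 27 bases, and here they were taken from annotated protein-coding transcripts of genes with 20 or more multi-exon reads in each of 2 long-read RNA libraries of mouse gastrocnemius, the large calf muscle. There were 341 such exons in 256 genes, out of 33506 internal exons of any length in 3670 genes that met the same read minimum. A read spanned an exon when its chain of introns began before the exon and ended after it, and 315 of the 341, in 237 genes, were spanned by 10 or more reads in each library. Inclusion is the percentage of spanning reads whose chain held the exon with both of its annotated ends.

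Both libraries came from gastrocnemius of female B6CASTF1/J mice of 25 days, a cross of the B6 and CAST strains, and each was made from 2 µg of RNA. They form 1 group with no treatment or genotype contrast. The labels number the animals separately but give them the same donor record, and they name them biological replicates 1 and 2. The deposited tables count long reads per transcript model. The reads carry no molecular identifiers, so copies of 1 RNA molecule cannot be told apart from separate molecules.

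A microexon adds only a few amino acids when its length is divisible by 3, and it often alters a loop at the surface of a protein or next to a domain. The exons are too short to hold many of the sequence elements that help the splicing machinery define an exon, and their use depends on flanking intron elements and on regulators such as the SRRM4, RBFOX, PTBP, MBNL and QK proteins. Neurons and striated muscle are the tissues best known for including them. In muscle, microexons occur in MEF2 transcription factors, troponin T, triadin and the ryanodine receptor.

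The sequences below are those of GENCODE M21 transcripts on the mm10 assembly, 5′ to 3′, with the microexon in capitals and up to 9 bases of the neighbouring exons in lower case. The first set is shown because every annotated coding transcript across the site held the exon and no spanning read did.
Tnni1 4 bases, chr1:135803282-135803285, plus strand: gccggaagtTGAGgaaatccaa
Tnni2 7 bases, chr7:142442691-142442697, plus strand: gatgggagaTGAGGAGaagcgcaac
Phb2 6 bases, chr6:124716425-124716430, plus strand: ttttactcgGGGAAGtgacagcct
Capn1 12 bases, chr19:5996779-5996790, minus strand: gtgtaccagGTCCCTCGGGAGctggcgggt
Capn2 12 bases, chr1:182482536-182482547, minus strand: atctatgagGTTCCAGAGGAGctaacaggg
Uchl3 12 bases, chr14:101654208-101654219, plus strand: aaccctgagGTCACCAACCAGtttctcaag
The next pair is shown because related calcium pump genes had opposite inclusion of an exon of equal length in the deposited models.
Atp2a1 18 bases, chr7:126462500-126462517, minus strand: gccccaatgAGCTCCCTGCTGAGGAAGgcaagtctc
Atp2a2 18 bases, chr5:122500931-122500948, minus strand: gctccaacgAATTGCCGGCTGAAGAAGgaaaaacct
The MEF2 exons are shown because 2 of the 3 genes included them and the third did not.
Mef2a 24 bases, chr7:67244521-67244544, minus strand: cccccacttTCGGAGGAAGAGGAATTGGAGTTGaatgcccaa
Mef2d 21 bases, chr3:88161781-88161801, plus strand: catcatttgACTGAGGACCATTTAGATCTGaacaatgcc
Mef2c 24 bases, chr13:83654598-83654621, plus strand: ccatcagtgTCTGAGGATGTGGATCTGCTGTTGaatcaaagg
Most of the next exons had intermediate inclusion. Arhgef10l is added for the largest difference between the libraries, and the upstream Dnm2 exon, which had no reads, because it joins the same neighbouring sequences as the downstream one.
Anxa6 18 bases, chr11:54987051-54987068, minus strand: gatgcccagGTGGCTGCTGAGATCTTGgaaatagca
Dctn1 21 bases, chr6:83187764-83187784, plus strand: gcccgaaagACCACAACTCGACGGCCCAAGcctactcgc
Rilpl1 24 bases, chr5:124495899-124495922, minus strand: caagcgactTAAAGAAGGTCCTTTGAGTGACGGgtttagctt
Myl1 25 bases, chr1:66934518-66934542, minus strand: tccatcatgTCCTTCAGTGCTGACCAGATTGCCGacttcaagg
Car14 21 bases, chr3:95902111-95902131, minus strand: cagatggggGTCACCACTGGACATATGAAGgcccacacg
Car14 22 bases, chr3:95901459-95901480, minus strand: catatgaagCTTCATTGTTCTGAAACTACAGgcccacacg
Dnm2 12 bases, chr9:21489910-21489921, plus strand: cccaatcagGGTCATGTAGCTgtgatccgc
Dnm2 12 bases, chr9:21490658-21490669, plus strand: cccaatcagGGGGAGATCTTGgtgatccgc
Arhgef10l 15 bases, chr4:140568756-140568770, minus strand: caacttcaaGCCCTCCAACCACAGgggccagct
The next exons come from gene families whose members had exons of equal length and high inclusion.
Ythdf1 25 bases, chr2:180920312-180920336, minus strand: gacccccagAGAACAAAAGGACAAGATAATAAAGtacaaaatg
Ythdf2 25 bases, chr4:132211432-132211456, minus strand: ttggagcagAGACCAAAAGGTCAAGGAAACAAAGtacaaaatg
Ythdf3 25 bases, chr3:16183922-16183946, plus strand: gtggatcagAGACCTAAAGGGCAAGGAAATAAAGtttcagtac
Trim54 23 bases, chr5:31136753-31136775, plus strand: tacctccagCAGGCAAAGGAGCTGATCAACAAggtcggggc
Trim63 23 bases, chr4:134325045-134325067, plus strand: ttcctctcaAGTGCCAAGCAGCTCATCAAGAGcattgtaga
Dapk2 27 bases, chr9:66251075-66251101, plus strand: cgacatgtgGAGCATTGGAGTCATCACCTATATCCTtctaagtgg
Dapk3 27 bases, chr10:81191042-81191068, plus strand: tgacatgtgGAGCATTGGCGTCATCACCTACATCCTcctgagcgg
The last set is shown because most spanning reads lacked the exon and covered it with an intron whose ends are both annotated.
Ryr1 18 bases, chr7:29044919-29044936, minus strand: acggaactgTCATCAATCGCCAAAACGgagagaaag
Kif1b 18 bases, chr4:149265345-149265362, minus strand: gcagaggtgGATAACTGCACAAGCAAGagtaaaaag
Sh3glb1 24 bases, chr3:144699854-144699877, minus strand: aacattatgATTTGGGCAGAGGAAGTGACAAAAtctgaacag

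Replicate 1 had 1069771 mouse reads in the deposited counts and replicate 2 had 1557594, of which 993342 and 1334855 had more than 1 exon. The 6 muscle fibre markers summed to 173058 and 179518 CPM (reads scaled to the library's total of mouse reads). The 9 neuron markers summed to 4.67 and 3.85 CPM, and 6 of them were at 0 in both libraries. Fibroblast markers summed to 4087 and 2150 CPM, blood markers to 990 and 345 and adipocyte markers to 327 and 86.7, and the other 5 lists to between 14.1 and 263 CPM. Within the fibre list, the fast myosin gene Myh1 stood at 7673 and 1502 CPM. The part of these differences in inclusion was not tested. The slow troponin T gene Tnnt1 had 204 multi-exon reads in replicate 1 and 5348 in replicate 2.

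Over the 315 microexons, inclusion fell mostly at the extremes. Inclusion was above 90% in both libraries for 96 exons (30.5%), where 88.1% of all internal exons tested stood above 90%. It was between 10% and 90% in both for 27 exons (8.57%), against 4.26% of all internal exons. Among exons that some annotated coding transcript skips, the order was the reverse. There 24 of 196 microexons (12.2%) were between 10% and 90% in both, against 1084 of 5532 internal exons of any length (19.6%). No read with the exon was found in either library for 165 exons (52.4%), against 3.31% of all internal exons. Another 17 exons were below 10% with at least 1 read, and 10 fell into different classes in the 2 libraries. Median inclusion was 0% in each library, where that of all internal exons was 100%.

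Microexons with no reads were most frequent among the shortest. Among exons of 3 to 16 bases, 90 of 93 had no read with the exon in either library, and none was above 90% in both. Among those of 17 to 21 bases, 43 of 77 had none and 14 were above 90%. Among those of 22 to 27 bases, 32 of 145 had none and 82 were above 90%. The bounds of these length bins were chosen after the values were seen.

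The same order held among exons present in every annotated coding transcript across their site, which the annotation never skips. All 15 such exons of 3 to 16 bases had 0 reads with the exon in both libraries. Of 26 such exons of 17 to 21 bases, 12 were above 90% in both and 7 had none. Of 78 such exons of 22 to 27 bases, 72 were above 90% and 0 lacked reads altogether. Beyond the limit of 27 bases, 1093 of 1130 such exons of 28 to 51 bases were above 90%. At the limit itself, 26 of 27 such exons of 27 bases and 9 of 10 of 28 bases were above 90%. At the read minimum, the 104 genes whose lower library had 20 multi-exon reads held 9 exons of 3 to 27 bases, and the 103 genes with 19 held 4, which were not counted.

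**Figure D1:**
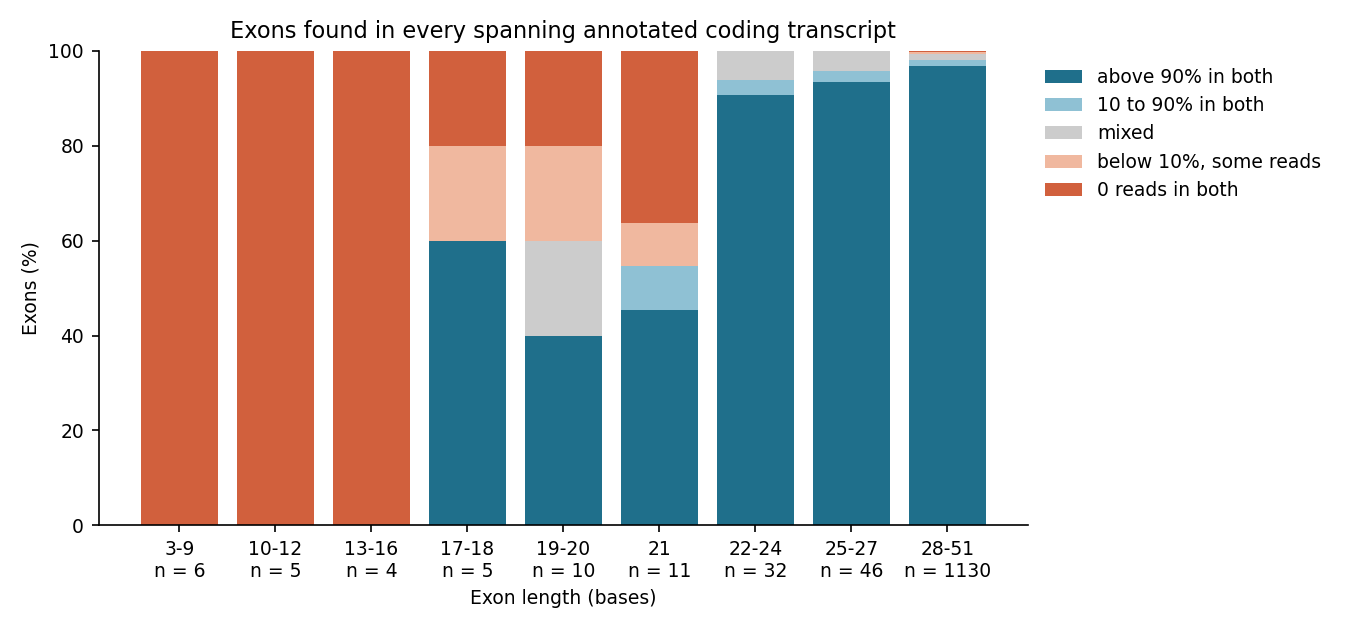
Bars give, for exons found in every annotated coding transcript across their site, the percentage of exons (vertical axis) in each inclusion class by exon length in bases (horizontal axis), with the number of exons under each bar. All exons of 16 bases or fewer had 0 reads in both libraries, and 72 of 78 of 22 to 27 bases were above 90%.

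**Figure D2:**
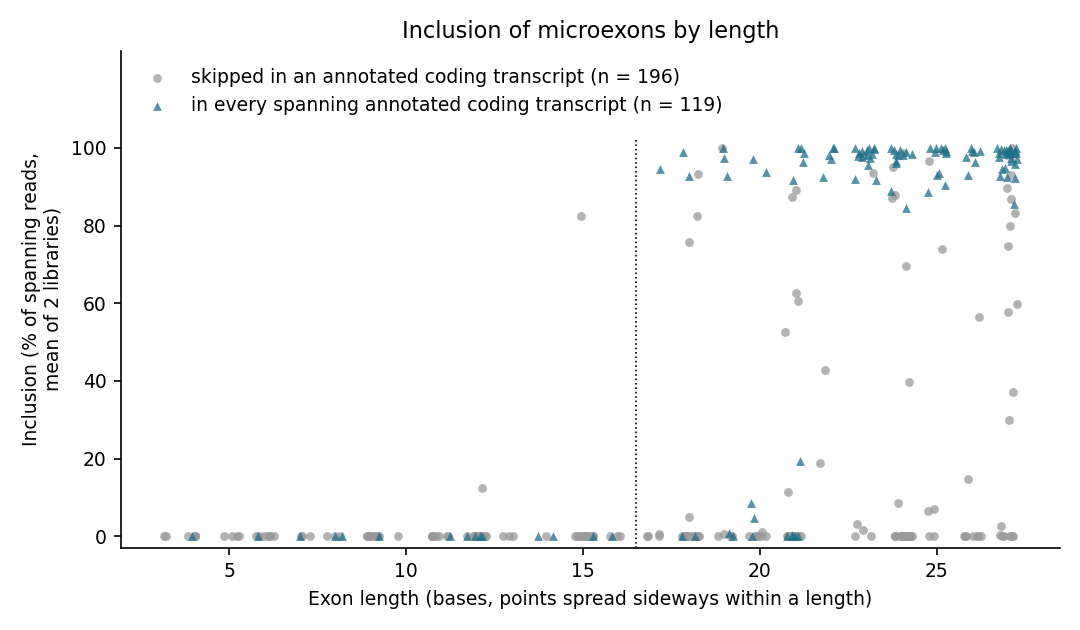
Each point is 1 of 315 microexons, with its length in bases (horizontal axis) and its mean inclusion over the 2 libraries in percent of spanning reads (vertical axis), and the dotted line separates 16 from 17 bases. To the left of the line 2 exons, in Dnm2 and Arhgef10l, stand visibly above 0.

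The 3 exons of 16 bases or fewer with any read were in Dnm2, Arhgef10l and Tnnt3. Dnm2, the membrane-cutting GTPase dynamin 2, has 2 alternative exons of 12 bases. The downstream one was in 7 of 48 reads in replicate 1 (14.6%) and 4 of 40 in replicate 2 (10%), and the upstream one in 0 of 48 and 0 of 40. The 15-base exon of Arhgef10l, a guanine nucleotide exchange factor, was in 32 of 46 reads (69.6%) and 40 of 42 (95.2%). One 15-base exon of Tnnt3, the fast troponin T gene, was in 2 of 1132 and 1 of 2603 reads. Between them these exons ranged from under 1% to 95.2% inclusion.

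The troponin genes held the most read of the short exons. Tnni2 encodes fast troponin I, the inhibitory subunit that holds actin and myosin apart at rest. Its 7-base exon, present in 3 of 3 annotated coding transcripts across the site, was in 0 of 2381 reads in replicate 1 and 0 of 5201 in replicate 2. A count of 0 allows an inclusion of up to 0.126% and 0.0577% by counting error (3 counts of the total). The 4-base exon of Tnni1, the slow troponin I gene, was in 0 of 39 and 0 of 461 reads, with 6 of 6 coding transcripts holding it. In both genes the covering intron joined the annotated ends of the neighbouring exons in most reads, 2272 and 4920 for Tnni2 and 38 and 456 for Tnni1.

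Tnnt3 joins troponin to tropomyosin and has the largest number of microexons of any gene here, 9. Most of them are combined variably among the annotated transcripts, near the start of the protein. Its 14-base exon is in 23 of 23 coding transcripts and was in 0 of 1132 and 0 of 2613 reads. An 18-base exon in 22 of 23 transcripts was in 3 of 1131 and 2 of 2600 reads. A 19-base exon in 20 of 23 was in 10 of 1137 (0.880%) and 12 of 2610 (0.460%). The other members of the gene had 2 or fewer reads in either library.

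The covering introns in Tnnt3 seldom ended at annotated sites. For the 14-base exon, 1125 of 1132 reads in replicate 1 and 2596 of 2613 in replicate 2 had an intron over the exon with an unannotated end. The deposited models hold intron positions and no read sequence. A read that skipped an exon and a read whose exon bases were placed elsewhere in the alignment therefore cannot be told apart here, and the inclusion values are those of the deposited models.

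Ends of covering introns were compared for the exons that every annotated coding transcript holds and that stood below 10% in both libraries. In 12 of the 15 of 3 to 16 bases, a single covering intron took over 50% of the spanning reads in each library. It joined the annotated ends of the neighbouring exons for 4 of these, in Phb2, Pitpnc1, Tnni1 and Tnni2. In the other 8 the intron left 4 to 17 bases next to the upstream exon that the annotation places in the intron. The number of bases left equalled the length of the missing exon in 2 of the 8. Of the 11 such exons of 17 to 27 bases, 9 had a single main covering intron, which joined annotated ends for 1, in Ryr1, and was shifted for 8. The part of these shifted ends in the low inclusion was not tested.

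Named cases show both forms. Phb2, a prohibitin of the inner mitochondrial membrane, lacked its 6-base exon in 136 of 136 and 190 of 190 reads, with annotated ends in all of them. Capn1, a calcium-activated protease, lacked its 12-base exon in all 53 and 33 reads, and 11 bases were left beside the upstream exon in 53 and 32 of them. In its relative Capn2 the exon of equal length was in 0 of 84 and 0 of 70 reads, with 17 bases left in 83 and 70. The 16-base exon of Hnrnpk, a nuclear RNA-binding protein, was in 0 of 196 and 0 of 233 reads, with 16 bases left in 192 and 224. Uchl3, a ubiquitin hydrolase, had 14 bases left in 38 of 38 and 91 of 91 reads.

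Other exons of 9 bases or fewer were annotated in some transcripts only. Cacna1s, the voltage sensor of the T-tubule, had its 9-base exon in 0 of 766 and 0 of 272 reads, of which 753 and 268 held the bases within a longer exon. The 2 alternative 4-base exons of Mpc1, the mitochondrial pyruvate carrier, were each in 0 of 238 and 0 of 610 reads. Pitpna, a phosphatidylinositol transfer protein, had 0 of 129 and 0 of 178 reads with either its 8-base or its 9-base exon. The 5-base exon of Pdlim5, a Z-disc PDZ-LIM protein, was in 0 of 279 and 0 of 352 reads.

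Atp2a1 held by far the most spanned microexon. The gene encodes SERCA1, the calcium pump of fast sarcoplasmic reticulum. Its 18-base exon, which 1 annotated coding transcript spans and holds, was in 1 of 164148 reads in replicate 1 and 0 of 83647 in replicate 2. One intron with 26 unannotated bases left beside the upstream exon took 162855 and 82824 of these reads. Atp2a2, the pump of slow muscle and heart, has an exon of equal length at the matching place, and 13 of the 18 bases are the same. That exon was in 85 of 90 reads (94.4%) and 218 of 239 (91.2%). In the deposited models the paralogs thus differed from near 0% to above 90% in both libraries. Whether the Atp2a1 reads skipped the exon or had its bases placed elsewhere cannot be told here, and the cause was not tested.

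Reads whose chains lacked the Atp2a1 exon made up much of the unannotated chain count of each library. The deposited tables label chains NIC (unannotated combinations of annotated sites) or NNC (with an unannotated site). Of the reads spanning the Atp2a1 exon, 161624 were labelled NNC and 1228 NIC in replicate 1, while 1346 were NNC and 81599 NIC in replicate 2. They were 82.3% of all NNC reads in replicate 1 and 63.4% of all NIC reads in replicate 2. Without them, NIC took 5.89% and 3.20% of the remaining mouse reads and NNC 3.83% and 2.55%, from 5.10% and 8.26% and from 18.3% and 2.50% with them. Reads with the same covering intron thus carried different labels in the 2 libraries. The labels were looked at after the values were seen.

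**Figure D3:**
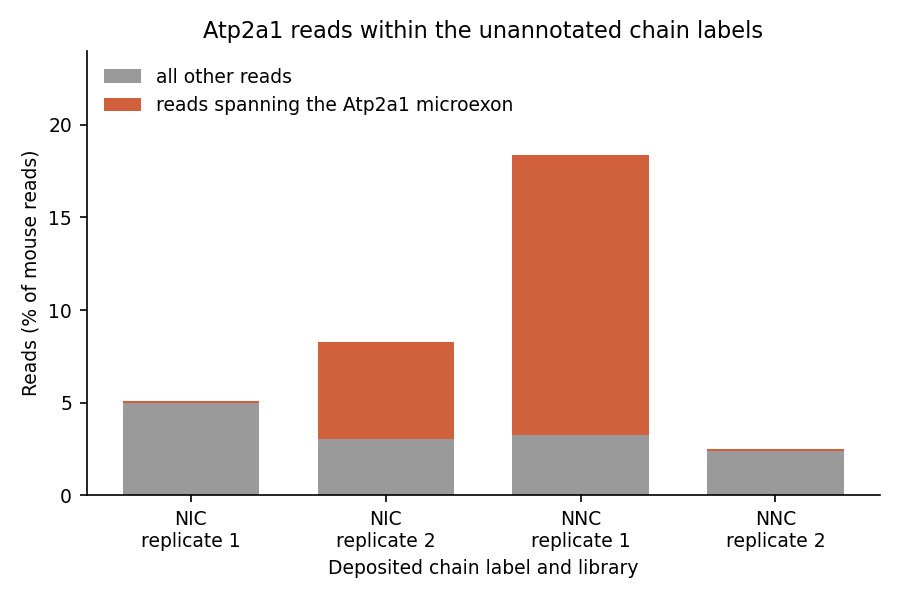
Bars give the percentage of mouse reads (vertical axis) labelled NIC or NNC in each library, with reads spanning the Atp2a1 microexon in orange and all others in grey. The orange part lies almost wholly under NNC in replicate 1 (161624 reads) and under NIC in replicate 2 (81599 reads).

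Chains that matched an annotated transcript but for missing exons of 27 bases or fewer, with intron ends within 30 bases, were then counted over all genes. They made up 165784 of 250895 NIC and NNC reads in replicate 1 (66.1%) and 90755 of 167609 in replicate 2 (54.1%). With intron ends required to match exactly there were only 2990 (1.19%) and 5775 (3.45%). Atp2a1 gave 160400 and 81140 of them. Without Atp2a1 there were 5384 and 9615, in 161 and 151 genes. Tnni2 came next with 2024 and 4316 reads, then Mpc1 with 234 and 586 and Mrpl33, a mitochondrial ribosomal protein, with 180 and 564. Hacd1, a fatty acid elongation enzyme of muscle, had 226 and 461 reads that lacked its 19-base exon, with 27 bases left beside the upstream exon.

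Inclusion between 10% and 90% in both libraries was found for 27 exons, which were chosen by these values. Lengths divisible by 3 made up 23 of them (85.2%), against 51 of the 96 exons above 90% (53.1%), 188 of all 315 (59.7%) and 12443 of 31228 internal exons (39.8%). Of the 27, 26 lay in coding sequence and 1, in Hnrnpc, in a UTR. The median difference between the libraries was 4.42 percentage points, and the 95% exact binomial (Clopper-Pearson) intervals of the libraries overlapped for all but 1. These intervals cover counting error only.

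The MEF2 factors switch on muscle genes, and their short acidic exon lies in the part that activates transcription. In Mef2a the 24-base exon was in 46 of 52 reads (88.5%) and 24 of 28 (85.7%). In Mef2d the 21-base exon was in 88 of 101 (87.1%) and 63 of 72 (87.5%). In Mef2c the 24-base exon was in 0 of 133 and 0 of 75, which allows up to 2.26% and 4.00%. Both libraries gave the same order, with Mef2a and Mef2d high and Mef2c at 0, and all Mef2c reads joined the annotated ends. Of the reads without the exon, 6 and 3 in Mef2a joined the annotated ends too. In Mef2d, 10 and 6 had an intron that left 6 bases beside the upstream exon and 17 beside the downstream one. Whether these Mef2d reads skipped the exon cannot be told here. The Mef2a and Mef2c exons share 17 of 24 bases.

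The next intermediate exons are described together by the known role of their genes, also a grouping made after the values were seen. Anxa6, the calcium-binding annexin A6, included its 18-base exon in 211 of 279 reads (75.6%) and 167 of 220 (75.9%). Dctn1, the p150 subunit of dynactin that links dynein to microtubules, included 1 of its 4 microexons. That 21-base exon was in 194 of 301 reads (64.5%) and 83 of 146 (56.8%). The other 3, of 15, 18 and 21 bases, had 0 reads in both libraries. Mast2, a microtubule-associated kinase, was at 57 of 85 (67.1%) and 21 of 36 (58.3%) for a 21-base exon. Mark2, a kinase that detaches microtubule-binding proteins, was at 24 of 38 (63.2%) and 13 of 23 (56.5%) for a 27-base exon. Values for Anxa6 were nearly equal in the 2 libraries, and those of the other 3 genes were lower in replicate 2 within overlapping intervals.

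Other exons of the 27 are grouped here by the known role of their genes, a grouping made after the values were seen. Rilpl1, an effector of Rab GTPases, included a 24-base exon in 84 of 121 reads (69.4%) and 128 of 183 (69.9%). Trappc9, of the TRAPP tethering complex, was at 36 of 43 (83.7%) and 19 of 23 (82.6%). Mia2, which works at exit sites of the endoplasmic reticulum, was at 35 of 41 (85.4%) and 45 of 51 (88.2%). These 3 exons were included in most reads of both libraries. The 27-base exons of the related genes Tpd52 and Tpd52l2 share 17 of 27 bases, with 16 of 47 (34.0%) and 23 of 57 (40.4%) for Tpd52. For Tpd52l2 the values were 19 of 36 (52.8%) and 35 of 56 (62.5%). Ap1b1, a subunit of the clathrin adaptor AP-1, was at 3 of 27 (11.1%) and 2 of 17 (11.8%). Its mean over the libraries, 11.4%, was the lowest of the 27, next to 12.3% for Dnm2. Tmed2, a cargo receptor of early secretory vesicles, was just outside the 27, with 436 of 497 (87.7%) and 540 of 597 (90.5%).

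At the cell surface, Axl, a receptor tyrosine kinase, included its 27-base exon in 24 of 30 (80%) and 20 of 25 (80%) reads. Mtmr3, a lipid phosphatase inside the cell, was at 18 of 26 (69.2%) and 16 of 20 (80%). The membrane protein Tmem184b was at 18 of 35 (51.4%) and 15 of 28 (53.6%) for a 21-base exon. The transporter Slc38a10 was lower, at 11 of 32 (34.4%) and 9 of 20 (45.0%). Without the reads that held its exon within a longer exon, the mean of the 2 libraries went from 39.7% to 54.3%. Lrrfip1, which binds the actin regulator Flightless, was high at 47 of 55 (85.5%) and 35 of 44 (79.5%) for an 18-base exon. Mars, the methionyl-tRNA synthetase, was at 78 of 91 (85.7%) and 80 of 89 (89.9%). Hnrnpc, an RNA-binding protein of the nucleus, was at 18 of 28 (64.3%) and 16 of 33 (48.5%). Ptpra, a receptor tyrosine phosphatase, was at 6 of 20 (30%) in each library. Depth was low for most of this group, which gives them wide intervals.

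**Figure D4:**
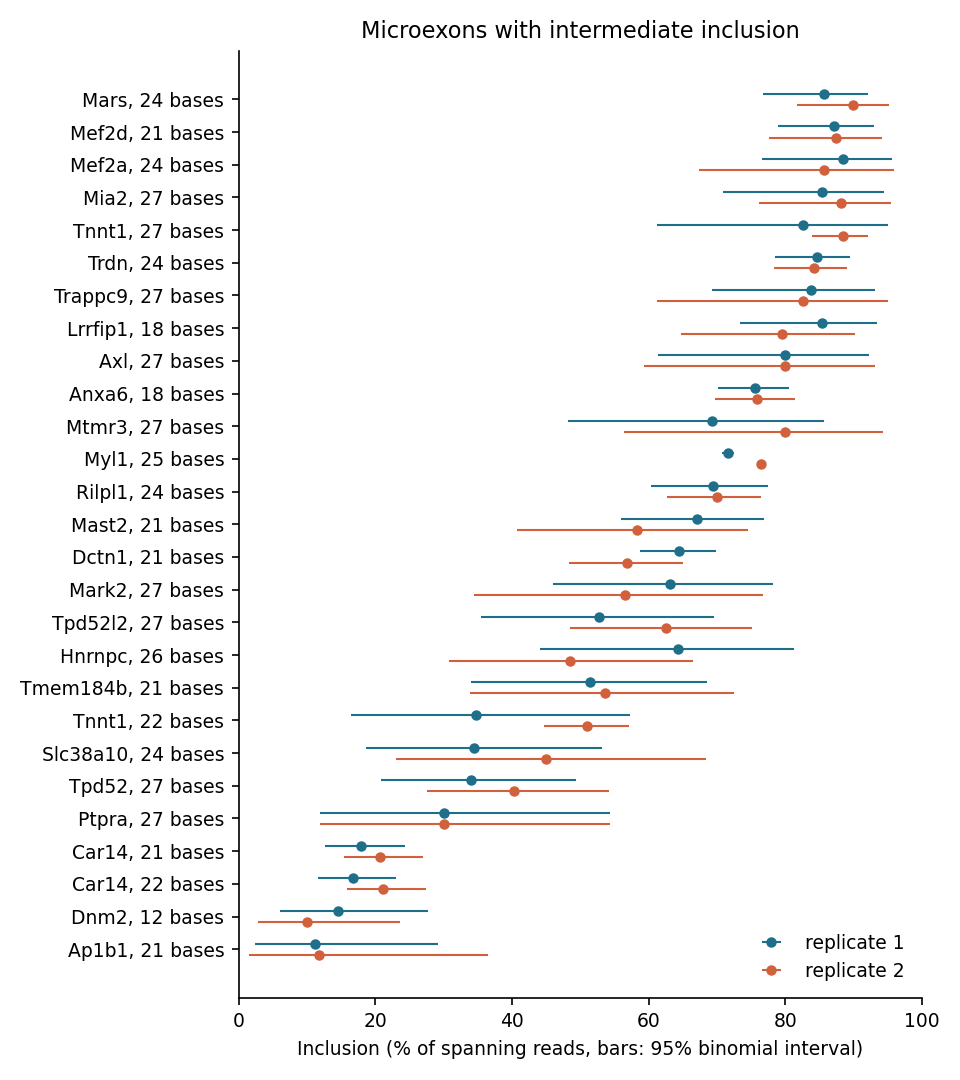
Points give inclusion in percent of spanning reads (horizontal axis) for the 27 microexons between 10% and 90% in both libraries, with replicate 1 in blue and replicate 2 in orange and bars for 95% exact binomial intervals. The intervals are apart only for Myl1, at 71.6% and 76.4%.

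Long reads also show how 2 microexons combine on 1 read, and 2 pairs had enough shared reads for a test. In Car14, a carbonic anhydrase anchored at the cell surface, a 21-base exon in 32 of 179 (17.9%) and 42 of 203 (20.7%) reads is followed by a 22-base exon in 30 of 179 (16.8%) and 43 of 203 (21.2%). Both were present in 30 of 179 reads in replicate 1 and both absent in 147. In replicate 2 both were present in 41 of 203 and both absent in 159. One without the other was found in 2 and 3 reads, of which the 22-base exon alone made up 0 and 2. The exons were linked in the chains of each library (Fisher's exact test, two-sided, adjusted p = 8.98e-32 and 9.48e-39 over pairs and libraries). However, an intron over the 21-base exon left 26 bases beside the upstream exon in 124 of 179 and 141 of 203 reads. Whether such reads skipped the exon or had its bases placed elsewhere cannot be told here. The link is therefore one between chains of the deposited models. In Tnnt1 the 22-base and 27-base exons were both present in 7 of 23 and 124 of 260 shared reads. Their link passed the exact test in replicate 2 (adjusted p = 0.00232) and not in replicate 1 (adjusted p = 1), where only 23 reads were shared.

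In Tnnt1 the 22-base exon was in 8 of 23 reads (34.8%) and 134 of 263 (51%). The 27-base exon was in 19 of 23 (82.6%) and 230 of 260 (88.5%). Exons of 16 and 19 bases that share an end with the 22-base exon had 0 reads in both libraries. The longest of the 3 alternatives was thus the only one found in the deposited models. Whether bases of the shorter forms were placed elsewhere in the alignment cannot be told here. The 14-base exon, present in 10 of 10 coding transcripts, was in 0 of 23 and 0 of 260 reads, with 12 bases left beside the upstream exon in 21 and 244.

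The libraries were compared exon by exon with Fisher's exact test over all 31228 internal exons. This compares the 2 libraries and no condition, and its p-values cover counting error only, with reads taken as independent. Of these exons 35 (0.112%) were called at an adjusted p below 0.05, and of the 315 microexons 1, in Myl1. At an unadjusted p below 0.05 there were 5 microexons, in Myl1, Arhgef10l, Rps24, Ipo13 and Mtch2, and 320 of all 31228 internal exons (1.02%). Arhgef10l had the largest difference of any microexon, 25.7 percentage points, with an adjusted p of 0.915 by the exact test. An intron over its exon that left 21 bases beside the downstream exon was in 8 of 46 reads in replicate 1. In replicate 2 it was in 0 of 42, and its part in the difference was not tested.

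Myl1 encodes the essential light chains of fast myosin, made from 2 promoters, each with its own first exon and its own short second exon. The 25-base exon was in 7763 of 10840 reads in replicate 1 (71.6%) and 21211 of 27757 in replicate 2 (76.4%). The difference was 4.80 percentage points (Fisher's exact test, two-sided, adjusted p = 1.56e-18). Split by first exon, reads from the upstream first exon held it in 2 of 2846 (0.0703%) and 1 of 5886 (0.017%). They held the 28-base exon of the other form, at chr1:66934246-66934273 on the minus strand, in 99.8% and 99.9%. All other reads held the 25-base exon in 7761 of 7994 (97.1%) and 21210 of 21871 (97.0%). Within each kind of first exon the percentages of the 2 libraries lay closer together than over all reads. This split was chosen after the values were seen.

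**Figure D5:**
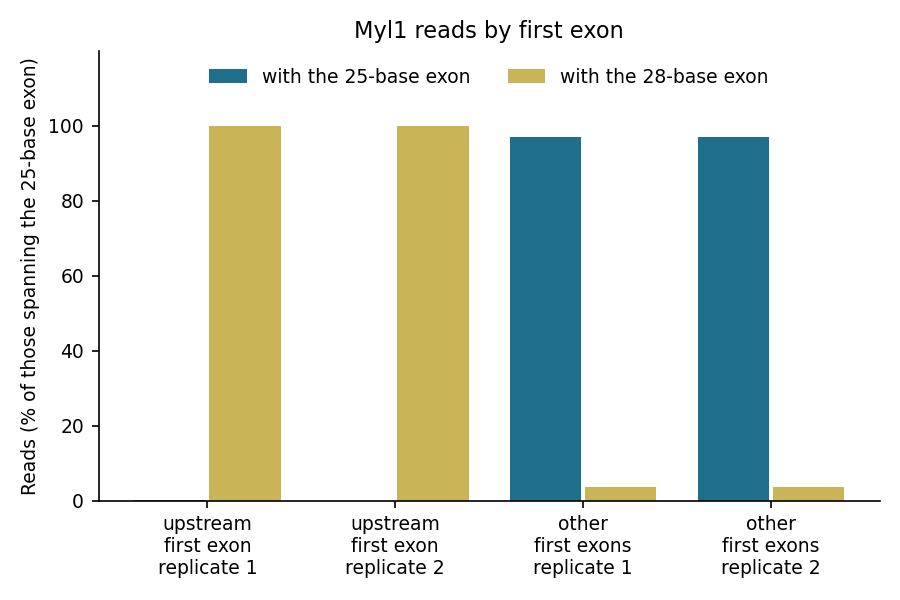
Bars give the percentage of Myl1 reads spanning the 25-base exon (vertical axis) that held the 25-base exon (blue) or the 28-base exon (yellow), by first exon and library. The 25-base exon was in 0.0703% and 0.017% of reads from the upstream first exon and in 97.1% and 97.0% of all other reads.

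Among muscle junction genes, Trdn had several microexons above 90%, while Ryr1, Cacna1s and Bin1 had microexons with no reads. Trdn, triadin of the junction between T-tubule and sarcoplasmic reticulum, had 7 microexons, of which 6 were above 90% in both libraries. The most spanned, of 27 bases, was in 343 of 346 reads (99.1%) and 425 of 429 (99.1%). The seventh, of 24 bases, was in 154 of 182 (84.6%) and 166 of 197 (84.3%). It is present in the only annotated coding transcript across the site, so its skipping in 10 and 16 reads with annotated intron ends is a chain that the coding annotation lacks. A further 17 and 15 reads overlapped it in other ways.

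Several sarcomere and membrane genes also stood near full inclusion. Myom2, an M-band protein, held its 23-base exon in 1345 of 1353 (99.4%) and 489 of 495 (98.8%) reads. In Myom1, its relative, 1 of 2 alternative 23-base exons was in 490 of 499 (98.2%) and 269 of 275 (97.8%), and the other in 0 of 499 and 0 of 274. Mypn, a Z-disc protein, held a 24-base exon in 158 of 160 and 65 of 65, and Sgca, the alpha-sarcoglycan of the muscle membrane, a 27-base exon in 168 of 168 and 239 of 239. Over the whole sarcomere and Z-disc list, 6 of 28 microexons were above 90%, 2 were intermediate, 4 were below 10% and 16 had no reads, where over all 315 the shares were 30.5% above 90%, 8.57% intermediate and 52.4% with no reads. Over the triad and calcium list the counts were 7, 2, 2 and 9 of 20. The 2 troponin T genes alone give 15 of the 28 in the sarcomere list. Among 4 members of the transcription and chromatin list, Mef2a and Mef2d were intermediate and 2 had no reads, Mef2c and the 12-base exon of Kdm1a, a histone demethylase (0 of 28 and 0 of 22). In the membrane traffic list, Ap1b1 was intermediate, while Sh3glb1 and the 15-base exon of Itsn1, an endocytic scaffold (0 of 50 and 0 of 24), had none. In the adhesion and cytoskeleton list, Sgca was above 90%, Mast2 intermediate, Kif1b without reads, and Cd47, a cell surface receptor, below 10% at 2 of 34 (5.88%) and 5 of 62 (8.06%).

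Some highly read genes outside these lists also had high inclusion. Of the 256 microexons in no list, 82 were above 90% in both libraries and 135 had no reads. The examples here were picked from the first kind. Selenow, a small selenoprotein of muscle, held a 25-base exon in 1106 of 1114 (99.3%) and 2558 of 2577 (99.3%) reads. Gpx4, which reduces lipid peroxides, held one of equal length in 318 of 318 and 782 of 783. Atp5mpl, a small ATP synthase subunit, held a 24-base exon in 257 of 257 and 946 of 946. Slightly lower values were seen for Bsg, the partner of lactate transporters, at 929 of 994 (93.5%) and 1454 of 1556 (93.4%), and for Uqcrh, of respiratory complex III, at 203 of 223 (91.0%) and 609 of 659 (92.4%). In Bsg, 52 and 91 reads without the exon had an intron that left 28 bases beside the downstream exon. In Uqcrh, 11 and 29 had 13 bases left beside the upstream exon. Whether such reads skipped the exon cannot be told here. For these 5 exons the libraries differed by less than 2 percentage points.

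Exons of similar sequence were searched among 3809 pairs of microexons of equal length and 12 or more bases. Of these pairs, 29 shared at least 60% of bases. They were not all from related genes, since Tnnt3 and Uchl3, for example, shared 8 of 12 bases. The YTH readers of methylated adenosine, Ythdf1, Ythdf2 and Ythdf3, each have a 25-base exon, with 20 to 22 bases shared between pairs. Inclusion was 35 of 35 and 41 of 42 for Ythdf1, 38 of 39 and 51 of 51 for Ythdf2, and 28 of 31 and 20 of 23 for Ythdf3. The ubiquitin ligases Trim54 and Trim63, which turn over muscle proteins, share 15 of 23 bases. Trim54 held its exon in 352 of 355 and 483 of 492 reads, and Trim63 in 115 of 127 and 156 of 167. Dapk2 and Dapk3, calmodulin-linked kinases, share 25 of 27 bases and held the exon in all 25 and 21 and all 47 and 58 reads. Members of these families, which were chosen for high inclusion, stood at 87.0% or more in each library. Other related genes among the 29 pairs went otherwise. Capn1 and Capn2 had no reads with their exon. Mef2c and Atp2a1 had none or almost none, where their relatives Mef2a and Atp2a2 were high.

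A few exons of 17 bases or more are described here because they were absent from all reads and the covering introns had annotated ends in most of them. Ryr1, the calcium release channel, lacked its 18-base exon, held by 3 of 3 coding transcripts, in 153 of 153 and 65 of 65 reads, and 152 and 64 of these had annotated ends. Its 15-base exon, which is below that length and given beside it, was in 0 of 87 and 0 of 24 reads. The annotated ends of the neighbouring exons were joined in 60 and 17 of these. Kif1b, a motor of vesicle and mitochondrial transport, had 0 of 259 and 0 of 60 reads with its 18-base exon. Sh3glb1, the membrane-bending endophilin B1, had 0 of 200 and 0 of 338 with a 24-base exon. A 24-base exon of Bin1, which shapes T-tubules, was in 0 of 594 and 0 of 668. For these 24-base exons, a count of 0 allows up to 1.5% and 0.888% for Sh3glb1 and 0.505% and 0.449% for Bin1.

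Genes of splicing factors were read from the same tables. Of the 31 listed, 26 had reads in both libraries and 4 were at 0 in both. Most read were Rbm38 at 242 ± 54.4 CPM (SD, n = 2), Mbnl2 at 186 ± 118, Rbm24 at 148 ± 22.6, Qk at 121 ± 30.1, Pcbp1 at 106 ± 3.58 and Puf60 at 105 ± 7.36. The neuronal regulators Srrm3, Srrm4 and Rbfox3 had no reads, while Rbfox1 was at 31.8 and 25.7 CPM and Rbfox2 at 18.7 and 16.1. A count of 0 allows up to 2.80 and 1.93 CPM. Their part in inclusion was not tested.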

How the data were processed

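Long-read RNA-seq libraries of gastrocnemius from 2 animals were measured, as 1 group. The deposited values are read counts per transcript model, and the authors' accompanying notes name the assembly (mm10) and the annotation (GENCODE M21). Per the file headers of the gene models, TALON was the source of unannotated models. No source used here gives the aligner, its settings or read filters, and reads carry no molecular identifiers.

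Intron chains were built from each library's models and weighted by the counts. All complete, incomplete and unannotated multi-exon chains of a gene were used. Every internal exon of annotated protein-coding transcripts was counted as present, covered by an intron, held in a longer exon or otherwise overlapped. Exons with 10 or more spanning reads in each library were tested with Fisher's exact test, two-sided, and Benjamini-Hochberg adjustment over all of them. The test was tried on simulated data and the counting on chains with known answers. Intervals are Clopper-Pearson at 95%, and the limit for a count of 0 is 3 counts. Tools were scipy 1.17.1 for the tests, matplotlib 3.10.9 for figures, and numpy 2.4.6 with pandas 2.3.3 under Python 3.11.15. Exon sequences and the basic transcript set came from GENCODE M21, whose exons matched the deposited models for 141862 of 141862 transcripts, and 335 of 341 microexons had a sequence.

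Genes were named by rule: the 25 most spanned intermediate exons, the 10 most spanned, those called different between libraries, the 10 most spanned of 9 bases or fewer, the 4 most spanned of each gene list and the 6 most read splicing factors. The members, lists and rule were chosen with earlier results of these data known. Arhgef10l, Capn1, Capn2, Hnrnpk, Uchl3, Pitpnc1, Mrpl33, Hacd1, Tmed2, Ptpra, Atp2a2, Mypn, Myom1, Myom2, Ryr1, Selenow, Gpx4, Atp5mpl, Bsg, Uqcrh and the gene families were named after their values were seen. The list of kinases and GTPases held no member. Alternatives were other read minimums, length limits, transcript sets, chain classes, denominators and thresholds, and each library alone. Intron motifs were not analysed here.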

Additional observations from a re-analysis of the deposited data

How the results depend on the processing

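Each library alone gave 123 microexons at 50% inclusion or more (122 in both), 31 to 33 intermediate ones, 167 to 168 with no reads and 1 to 2 linked pairs. With a gene minimum of 50 reads the counts were 65 at 50% or more, 12 intermediate and 92 with no reads, over 173 microexons. Annotated chains alone gave 71, 5 and 73 over 150, and the 21-base Dctn1 exon then stood at 0%. Exons of 3 to 15 bases gave 1, 1 and 86 over 89, with 0 called by Fisher's exact test, where Arhgef10l alone had an unadjusted p below 0.05. Exons of 3 to 51 bases gave 1443, 150 and 280 over 1896, with 7 called and 49.2% divisible by 3. Intermediate exons numbered 47 at 5% to 95% and 15 at 20% to 80%, over the same 315. Requiring a difference of 10 percentage points left 0 called by the exact test, again with Arhgef10l below an unadjusted p of 0.05. Leaving out reads that held the exon within a longer exon moved the mean inclusion of 5 exons named by rule beyond their SD. The other 47 stayed within it. Among the 5 were Slc38a10, from 39.7% to 54.3%, and the 27-base Tnnt1 exon, from 85.5% to 92.0%. The causes of these changes were not tested. The Myl1 difference kept its direction and its call under the transcript, chain and denominator alternatives, from 4.76 to 5.24 percentage points. Spanning depth limits most single values, with 10 reads as the minimum, and the animals of 1 group allow no comparison of conditions.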
